A study of Mus musculus with 2 samples.

Results

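The late neutrophil granule genes are 10 genes whose proteins fill the cytosol, the later granules and the surface of maturing neutrophils. They were taken as a named set of S100a8, S100a9, Ltf, Camp, Ngp, Lcn2, Ly6g, Fcnb, Retnlg and Mmp8, 10 of the 21883 protein-coding genes of the gene table used. S100a8 and S100a9 lie 22.6 kb apart and were treated as 1 locus, so that 9 loci were described, each holding the gene and 50 kb on both sides. Peaks of histone H3 lysine 27 acetylation (H3K27ac), which marks promoters and enhancers in use, had been mapped there by ChIP-seq in mouse MA9 leukaemia cells, which the MLL-AF9 fusion drives. The Gata2 KO library came from MA9 cells with both Gata2 alleles deleted (Gata2 -/-, 1 library), and the Gata2 f/f library from MA9 cells with the floxed gene (1 library). Per the labels, leukaemia cells from the bone marrow of primary animals received Cre or a control vector called MIT, were sorted for GFP and tdTomato, and stayed in culture for 7 to 9 days. The medium held the murine cytokines IL-3, IL-6 and SCF, and the labels do not say for each library which vector it received. The product of Gata2 is a zinc finger transcription factor of blood stem and progenitor cells. With 1 library per genotype there is no replicate check, no test was possible, and every difference below is one between 2 peak lists. Each library may hold the cells of 1 animal, and genotype and library cannot be told apart.

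Neutrophils make their granules in sequence as they mature. Azurophil granules with myeloperoxidase and serine proteases come first, at the promyelocyte stage. The specific granules with lactoferrin, cathelicidin and lipocalin follow in myelocytes and metamyelocytes, and the gelatinase granules after them. Genes of the later sets depend in mice on the factor C/EBP epsilon and are low or silent in progenitors, so that acetylation at their promoters is a feature of cells further along this path. H3K27ac peaks report a chromatin mark and not RNA, and no RNA level was measured here.

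The KO list held 37234 peaks and the f/f list 34272 on chromosomes 1 to 19, X and Y, covering 48.6 and 46.3 Mb. Median -log10 p, the authors' own measure of how far a peak stands out from background, was 9.41 in the KO list and 12.2 in the f/f list. Such values rank peaks within a list, no peak's value is compared with that of a peak in the other list, and the read depth is unknown. Where 1 threshold is applied to both lists, it need not select peaks of like strength in them. Gata2 itself had a gene-end peak in both lists, with 8444 bp under peaks in KO and 13774 bp in f/f over the gene and 50 kb flanks, which does not check the deletion. Peaks at Xist stood in the f/f list alone and peaks at Uty, Kdm5d and Eif2s3y in the KO list alone, so that the libraries also differ in sex-linked marks. Ddx3y, the other Y-linked gene looked at, had no gene-end peak in either list. No member window reached the first stretch of a chromosome where a list had no peak. Of 8 MA9 and myeloid marker genes, 6 had a gene-end peak in KO and 8 in f/f, Hoxa9 and Meis1 in f/f alone. Among markers of other cells, gene-end peaks were found in both lists at 1 of 4 mast cell and basophil genes, 1 of 5 erythroid, 1 of 4 lymphoid, 0 of 3 stromal and endothelial and 1 of 4 other-organ genes. Monocyte markers had such peaks at 6 of 6 genes in KO and 5 of 6 in f/f, the difference being Ccr2, which had a start peak in both lists.

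At the transcription starts of the 10 genes, the KO list had a peak within 1000 bp at 7 and the f/f list at 3, where 51.1% of 17491 protein-coding genes with a listed start had one in KO and 51.6% in f/f. S100a8, Camp and Ngp had a start peak in both libraries. S100a9, Ltf, Fcnb and Retnlg had one in KO alone, and Lcn2, Ly6g and Mmp8 had none in either. No member had a start peak in f/f alone. Of the 7 members marked in either list, 4 were thus marked in KO alone, or 57.1%, against 3.48% of 9359 protein-coding genes with a start peak in either list, and 4.51% of the same genes had one in f/f alone. The nearest f/f peak lay 26.1 kb from the S100a9 start, 23.9 kb from that of Ltf, 189 kb from that of Fcnb and 52.8 kb from that of Retnlg, so that all 4 also lacked an f/f peak within 5000 bp of the start, against 2.77% of the 9359 genes. All 4 peaks were weak calls for the KO list, with a -log10 p of 7.71 at Fcnb, 5.80 at S100a9, 4.24 at Ltf and 3.02 at Retnlg, below the KO median of 9.41. The shares of 3.48% and 2.77% cover start peaks of every strength, and shares for weak start peaks alone were not counted. Among all KO peaks, wherever they lie, 56.2% of those with a -log10 p under 5 had no f/f overlap. From 5 to the KO median it was 25.2%. In a bulk library, a mark on a small share of the cells and a weak mark on all of them cannot be told apart.

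The promoter windows at these start peaks are printed here to show the sequence around the marked starts. Each runs 5′ to 3′ on the gene's own strand, from 250 bases before to 50 after the start (RefSeq, build GRCm38.p6, the same build as mm10). Capitals mark 2 kinds of motif found on either strand. Runs that contain GATA or its complement TATC are GATA motifs (AGATAA, or the same with T as the first letter, G as the last or both), and the other runs match TTNNGNAA, a loose C/EBP motif. The 4 promoters with a start peak in KO alone come first.
S100a9, chr3:90695672-90695971, minus strand: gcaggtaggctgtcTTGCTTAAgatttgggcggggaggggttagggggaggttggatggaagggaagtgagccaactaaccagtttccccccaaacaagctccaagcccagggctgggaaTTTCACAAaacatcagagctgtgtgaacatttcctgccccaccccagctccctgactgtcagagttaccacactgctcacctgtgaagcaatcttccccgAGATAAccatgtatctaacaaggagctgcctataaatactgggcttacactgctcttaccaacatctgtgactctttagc
Ltf, chr9:111019042-111019341, plus strand: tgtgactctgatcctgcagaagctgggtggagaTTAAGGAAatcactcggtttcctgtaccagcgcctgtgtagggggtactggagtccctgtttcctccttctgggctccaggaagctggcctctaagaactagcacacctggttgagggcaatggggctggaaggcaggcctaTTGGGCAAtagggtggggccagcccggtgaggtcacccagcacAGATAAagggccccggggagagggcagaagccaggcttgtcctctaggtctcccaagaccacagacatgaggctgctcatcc
Fcnb, chr2:28084829-28085128, minus strand: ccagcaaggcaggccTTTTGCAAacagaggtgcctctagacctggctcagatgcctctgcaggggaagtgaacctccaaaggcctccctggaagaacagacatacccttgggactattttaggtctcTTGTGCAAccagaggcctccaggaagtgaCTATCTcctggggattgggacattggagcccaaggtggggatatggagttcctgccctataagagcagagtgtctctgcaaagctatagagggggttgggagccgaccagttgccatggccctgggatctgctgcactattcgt
Retnlg, chr16:48872358-48872657, plus strand: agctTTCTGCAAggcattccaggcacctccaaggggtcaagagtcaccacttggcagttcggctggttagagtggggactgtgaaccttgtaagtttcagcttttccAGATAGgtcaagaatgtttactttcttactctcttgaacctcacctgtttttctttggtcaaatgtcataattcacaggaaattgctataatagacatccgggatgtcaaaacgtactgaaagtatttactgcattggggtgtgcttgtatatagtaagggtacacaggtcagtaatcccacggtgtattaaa
The 3 promoters with a start peak in both lists follow, and at S100a8 the KO peak begins at -0.0880 kb and covers only part of the window.
S100a8, chr3:90668821-90669120, plus strand: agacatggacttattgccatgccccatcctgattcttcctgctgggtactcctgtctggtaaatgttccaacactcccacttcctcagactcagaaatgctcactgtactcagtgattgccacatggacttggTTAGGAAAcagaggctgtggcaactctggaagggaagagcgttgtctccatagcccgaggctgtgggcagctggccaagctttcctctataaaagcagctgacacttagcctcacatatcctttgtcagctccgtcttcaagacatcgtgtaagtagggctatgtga
Camp, chr9:109849407-109849706, minus strand: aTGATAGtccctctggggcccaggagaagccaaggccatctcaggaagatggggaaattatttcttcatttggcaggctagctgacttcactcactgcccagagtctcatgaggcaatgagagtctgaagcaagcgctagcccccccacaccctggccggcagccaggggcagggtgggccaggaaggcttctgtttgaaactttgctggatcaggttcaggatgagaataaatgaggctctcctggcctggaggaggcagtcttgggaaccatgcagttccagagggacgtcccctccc
Ngp, chr9:110419558-110419857, plus strand: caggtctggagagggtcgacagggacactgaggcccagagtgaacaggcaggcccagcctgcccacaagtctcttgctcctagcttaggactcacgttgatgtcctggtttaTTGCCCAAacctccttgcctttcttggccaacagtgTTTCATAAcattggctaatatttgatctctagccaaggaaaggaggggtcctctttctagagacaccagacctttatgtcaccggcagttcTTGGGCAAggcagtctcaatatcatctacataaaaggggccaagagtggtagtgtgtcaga

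A GATA motif stood in the promoters of S100a9, Ltf, Fcnb and Retnlg, and in that of Camp, but not in those of S100a8 and Ngp or of Lcn2, Ly6g and Mmp8. That is 5 of 10 members, against 26.7% of 17491 promoters of the same length. In S100a9 and Ltf the motif AGATAA ended 25 and 27 bases before the listed start. TTNNGNAA was found in 9 of 10 members, all but Camp, against 37.8% of the 17491 promoters. The PU.1 motif GAGGAA stood in 5 members (27.5% of all promoters) and the RUNX motif TGTGGT or TGCGGT in 3 (21.7%). Over all genes, 29.4% of 326 promoters with a start peak in KO alone held a GATA motif, and 18.5% of 422 in f/f alone. Shares were 17.5% of 8611 promoters with a start peak in both lists and 36.8% of 8132 with none. In the same order of groups, TTNNGNAA stood in 40.2%, 29.6%, 30.7% and 45.5% of promoters. The PU.1 motif stood in 31.3%, 23.9%, 26.3% and 28.7%, and the RUNX motif in 20.2%, 22.5%, 21.3% and 22.1%. A match is letters only and not a bound site, the motifs were chosen after the peaks were seen, and the members were not tested against these shares.

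**Figure D1:**
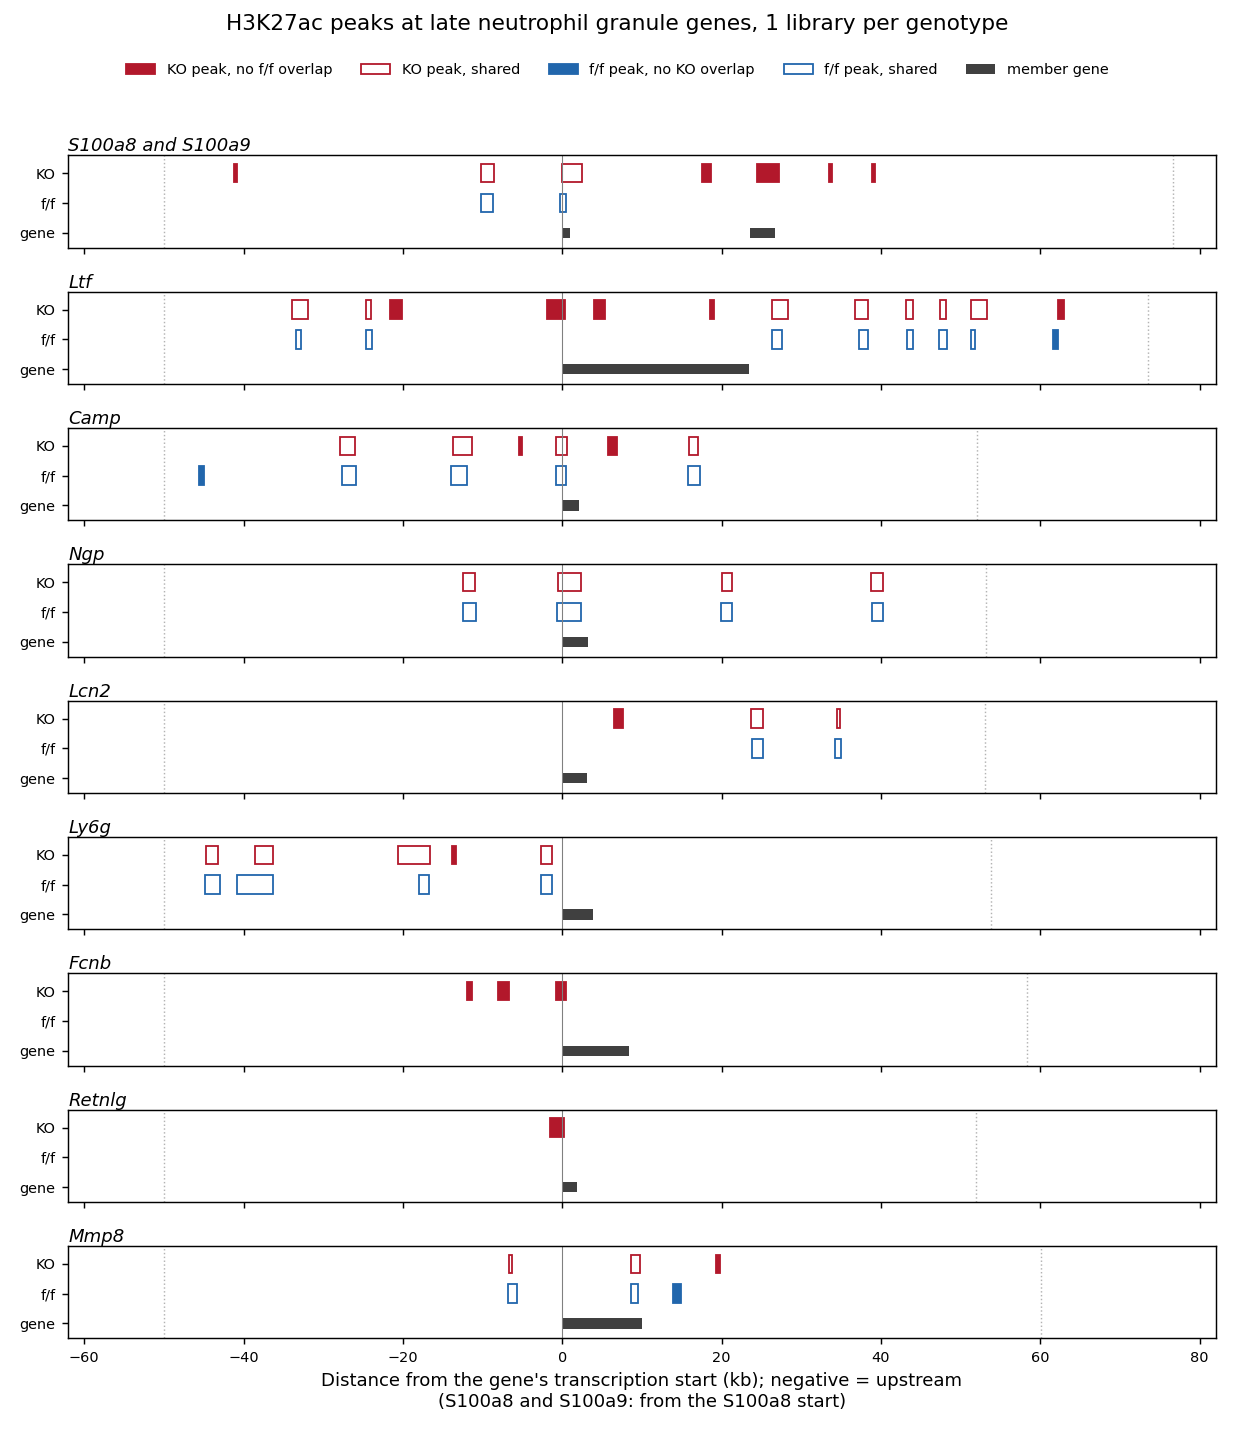
Peaks of the KO list (red, upper row of each panel) and the f/f list (blue, lower row) along the 9 loci, by distance in kb from the transcription start, upstream to the left; filled boxes have no overlapping peak in the other list, open boxes have one, grey bars are the member genes and dotted lines the window ends. Of the 19 filled KO boxes, 17 lie within 25 kb of a member's end, as do 35 of all 44 KO boxes. The S100a8 and S100a9 locus and Ltf hold 10 of the 19, and the f/f rows hold 3 filled boxes.

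Over the 9 windows the KO list had 44 peaks covering 61354 bp and the f/f list 28 peaks covering 37608 bp, a ratio of 1.63, against 1.05 for the whole lists. The mean fold enrichment of these peaks was 2.85 in KO and 3.64 in f/f, each within its own list. Their median was 2.73 in KO and 3.33 in f/f, where the whole lists had medians of 3.09 and 3.51. More bases were covered in KO at 7 loci and fewer at 2, Ngp and Mmp8, where 56.6% of 17300 protein-coding genes with any peak had more in KO. At 4 loci the KO bases were at least 1.5 times those of f/f, against 12.6% of all such genes, and no locus had 1.5 times as many in f/f, against 9.32%. The 4 loci were S100a8 and S100a9, Ltf, Fcnb and Retnlg. The S100a8 and S100a9 locus and Ltf together held 17205 of the 23746 bp by which KO exceeded f/f, or 72.5%. Without these 2 loci, KO covered 35451 bp and f/f 28910 bp at the other 7, a ratio of 1.23. Among peaks of at least 3-fold enrichment alone the direction turned, with 17275 bp in KO and 21732 bp in f/f. That ratio of 0.795 stands beside 0.833 for the whole lists at the same cut, where 19919 KO and 23036 f/f peaks were left. Gene-end peaks then stood in KO alone at 0 members and in f/f alone at 3, S100a8, Camp and Mmp8, whose KO peaks fell below the cut. The same share over all genes was not counted at this cut.

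**Figure D2:**
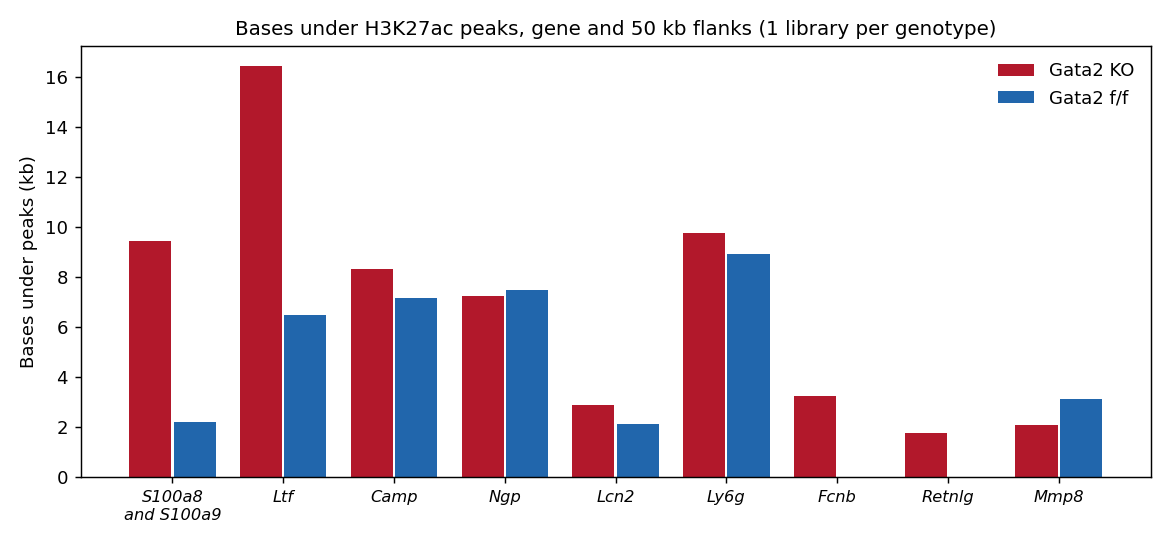
Bases under H3K27ac peaks in kb (vertical axis, from 0) over each gene and its 50 kb flanks in the Gata2 KO library (red, left bar) and the Gata2 f/f library (blue, right bar), 1 library each and hence no error bars. Ltf stands at 16437 bp in KO and 6479 bp in f/f, Fcnb and Retnlg have no f/f bar because no f/f peak lies in their windows, and Ngp and Mmp8 are the 2 loci with a lower red bar.

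S100a8 and S100a9 encode the subunits of calprotectin, a calcium- and zinc-binding protein that makes up much of the neutrophil cytosol. Their locus on chromosome 3 (S100a8 at 90669071 to 90670034, S100a9 at 90692630 to 90695721) had 7 KO peaks over 9466 bp and 2 f/f peaks over 2219 bp. The peak at the S100a8 start was shared but 2515 bp wide in KO and 764 bp in f/f. In KO it reached 2.43 kb past the start, beyond the end of the gene, and in f/f 0.515 kb. A peak 8.54 kb upstream of S100a8 was alike in both lists, at 1652 bp in KO and 1455 bp in f/f. The other 5 KO peaks had no f/f counterpart. The widest of them, 2862 bp, covered the start of S100a9 and most of that gene. Another lay 4.91 kb past the 3′ end of S100a9, between the pair of genes, and those at 6.78 and 12.2 kb upstream of the S100a9 start were only 444 and 398 bp wide, with -log10 p values of 3.18 and 3.11. The last was 40.8 kb upstream of S100a8 and 13.4 kb from S100a6, a neighbouring S100 gene.

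Ltf encodes lactoferrin, the iron-binding protein of specific granules. Around it (chromosome 9, 111019292 to 111042766) lay 12 KO peaks over 16437 bp and 8 f/f peaks over 6479 bp. Within the gene and at its start the f/f list had no peak at all. KO had one of 2318 bp across the start, one of 1356 bp beginning 3.97 kb into the gene and one of 433 bp beginning 18.6 kb into it, with -log10 p values of 4.24, 3.39 and 3.51. Another KO peak without f/f overlap lay 20.2 kb upstream (1498 bp). The last, 38.8 kb past the 3′ end, began 7 bp from an f/f peak that no KO peak overlapped, so that the separation of these calls is a matter of their edges. Several of the 7 shared peaks were wider in KO too. Shared peaks were 2018 bp in KO and 604 bp in f/f at 31.9 kb upstream, within the receptor transporter gene Rtp3, and 2101 and 1255 bp at 2.80 kb past the 3′ end. At the chemokine receptor-like gene Ccrl2 they were 1657 bp in KO and 1068 bp in f/f, and at 27.8 kb past the end of Ltf 2036 and 466 bp.

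Camp and Ngp, specific granule genes near Ltf on chromosome 9, gave another picture. Camp encodes the cathelicidin antimicrobial peptide precursor, and Ngp a secreted granule protein of the same cystatin-related family. The Camp start peak was 1378 bp wide in KO and 1379 bp in f/f. Over its window Camp had 6 peaks over 8356 bp in KO and 5 over 7178 bp in f/f. The 2 KO peaks without f/f overlap were weak (-log10 p 3.12 and 3.59) and lay within Nme6, a nucleoside diphosphate kinase gene, and 5.02 kb upstream of Camp. An f/f peak of 627 bp without KO overlap stood near Cdc25a. Ngp had 4 peaks in each list, all shared, covering 7260 bp in KO and 7512 bp in f/f. Its start peak, which runs 2.36 kb into the gene in KO and 2.33 kb in f/f, was 2937 bp wide in KO and 3004 bp in f/f. Camp, Ngp and Ltf lie within a short stretch, 570 kb between the first pair and 596 kb between Ngp and Ltf. In the 967 kb between their windows the KO list covered 52938 bp and the f/f list 56250 bp, a ratio of 0.941, and the stretch between the windows had no excess in KO.

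Lcn2 encodes lipocalin-2, which binds bacterial siderophores. No peak lay at its start or end in either list. Its window held 3 KO peaks over 2916 bp and 2 f/f peaks over 2148 bp, and the shared ones sat at the promoters of the neighbours Ciz1 and Dnm1. The KO peak without f/f overlap (1072 bp, -log10 p 3.31) lay 3.43 kb past the 3′ end of Lcn2, at the start of 1110008P14Rik.

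Fcnb, Retnlg and Mmp8 encode secreted proteins of neutrophils, the lectin ficolin-B, resistin-like gamma and neutrophil collagenase. Fcnb (chromosome 2, 28076479 to 28084910) had 3 KO peaks over 3263 bp and no f/f peak in its window. They covered the start (1291 bp) and lay 6.74 kb (1384 bp) and 11.4 kb (588 bp) upstream, and with -log10 p values of 7.71, 7.65 and 8.68 they were among the stronger of the KO peaks without overlap. Retnlg (chromosome 16, 48872608 to 48874498) had a single KO peak of 1777 bp over its start and no f/f peak, and this peak, at 3.02, is close to the lowest -log10 p of the KO list, 2.83. Mmp8 went the other way, with 3 KO peaks over 2096 bp and 3 f/f peaks over 3132 bp. The shared peak 6.28 kb upstream of Mmp8 was 377 bp wide in KO and 1194 bp in f/f, and that inside the gene near its 3′ end 1189 and 899 bp. Each list had a further weak peak in the neighbouring metalloproteinase gene Mmp27, at different places.

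Ly6g encodes the GPI-anchored surface antigen by which mouse neutrophils are recognised. It had no peak at either gene end, and the nearest, 1.29 kb upstream in KO and 1.27 kb in f/f, was 1412 bp wide in KO and 1352 bp in f/f. In all, 5 KO peaks covered 9783 bp and 4 f/f peaks 8940 bp, every one of them upstream, toward Ly6a2 and Ly6c2. Gains and losses offset each other here. The shared peak 16.7 kb upstream was 4011 bp in KO and 1262 bp in f/f, while that 36.4 kb upstream was 2233 bp in KO and 4507 bp in f/f. Ly6 genes are a family of close copies, how reads with several possible positions were treated is not given in the sources used here, and these values are uncertain for that reason.

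Of the 44 KO peaks in the windows, 19 (43.2%) were overlapped by no f/f peak, against 22.6% of all KO peaks, and 3 of 28 f/f peaks (10.7%) by no KO peak, against 16.2% of all f/f peaks. Every one of the 19 lay below the KO median -log10 p, between 3.02 and 8.68, and all 17 KO peaks at or above that median were shared. Below the median, 19 of 27 KO peaks of the loci (70.4%) had no f/f overlap, against 40.9% of the whole KO list. The count was 11 of 13 among KO peaks with a -log10 p under 5 (84.6%, against 56.2% of 9406), and 8 of 14 from there to the median (57.1%, against 25.2% of 9211). Of the 16 f/f peaks below the f/f median, 3 (18.8%) had no KO overlap, against 29.9% over the f/f list. These were 2 of 3 f/f peaks with a -log10 p under 5, against 45.0%, and 1 of 13 from there to the median, against 21.7%. Without the S100a8 and S100a9 locus and Ltf, 9 of 25 KO peaks (36.0%) had no f/f overlap.

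**Figure D3:**
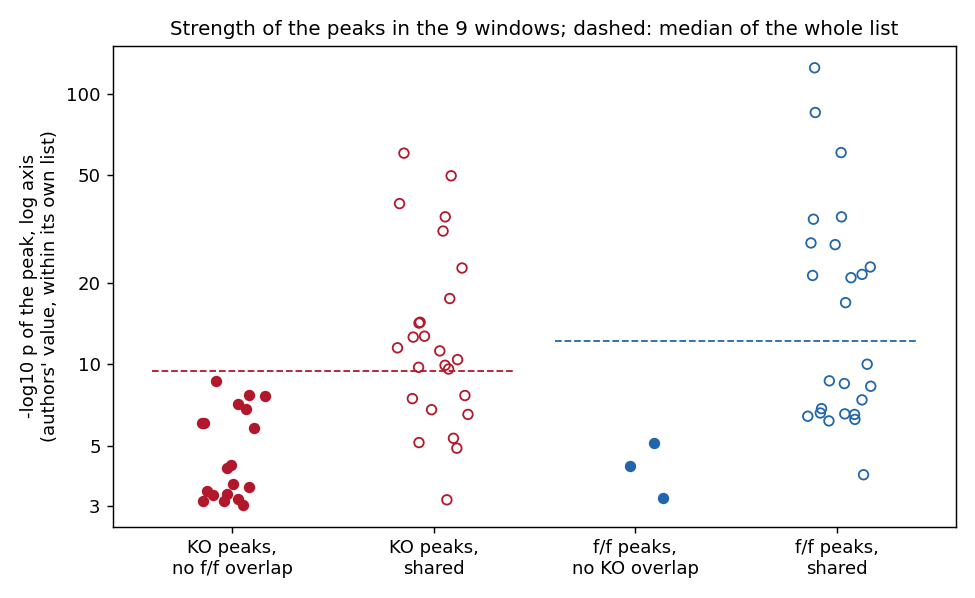
The -log10 p of each peak in the 9 windows (vertical log axis, the authors' value, ranked only within its own list), for KO peaks (red) and f/f peaks (blue) without overlap in the other list (filled) and shared (open); points are spread sideways at random for visibility. All 19 filled red points lie under the dashed KO median of 9.41, and the 3 filled blue points lie between 3.19 and 5.09, under the dashed f/f median of 12.2.

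By position, 4 of the 19 extra KO peaks covered a member's start, 2 lay further inside Ltf, 8 lay upstream and 5 downstream. The other end of a member held none. Counting the peak at 1110008P14Rik, 5 of the 19 (26.3%) lay within 1000 bp of the start of a protein-coding gene, against 3.98% of 8397 KO peaks without f/f overlap in the whole list. The share was 7.35% among all f/f peaks without KO overlap, and 1 of the 3 at the loci, in Mmp27, was such a peak. Each window was laid around a gene and so holds a gene start, while the whole lists include peaks far from any gene. Shares at the loci and over the whole lists are therefore not like for like. From the nearer end of the member, 13 of the 19 lay within 10 kb and 17 within 25 kb, and the farthest was 40.8 kb away. Of all 44 KO peaks in the windows, shared ones included, 21 lay within 10 kb and 35 within 25 kb. The widths of the 19 ran from 398 to 2862 bp with a median of 1072 bp.

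Coverage was then measured by distance. Inside the genes, 15.6% of bases lay under KO peaks and 5.16% under f/f peaks, a ratio of 3.02 against 1.05 over all protein-coding genes; the stretch between S100a8 and S100a9 is counted here as gene. In the first 5 kb outside the genes the shares were 13.4% in KO and 6.02% in f/f (ratio 2.22, all genes 1.02). From 5 to 10 kb they were 5.11% and 2.78% (1.84, all genes 1.06), and from 10 to 25 kb 7.04% and 4.77% (1.47, all genes 1.07). From 25 to 50 kb the lists did not differ by much, at 2.84% in KO and 2.78% in f/f (1.02, all genes 1.08), and from 50 to 100 kb they had 3.90% and 3.43% (1.13, all genes 1.07). The ratio inside the genes rests on 2 loci. Without the S100a8 and S100a9 locus and Ltf it was 1.30, with 4883 bp in KO and 3758 bp in f/f, and it did not fall steadily with distance. It was 1.88 in the first 5 kb, 2.26 from 5 to 10 kb, 1.41 from 10 to 25 kb, 0.696 from 25 to 50 kb and 1.29 from 50 to 100 kb.

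**Figure D4:**
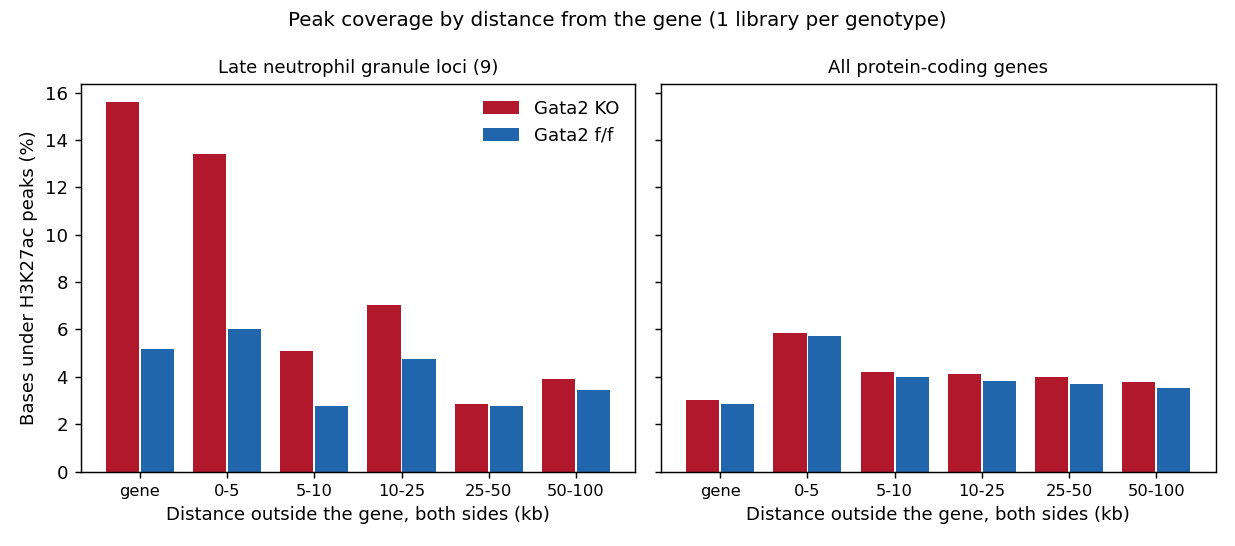
Percent of bases under H3K27ac peaks (vertical axis, from 0) inside the gene and at increasing distances in kb on both sides, for the 9 late neutrophil granule loci (left panel) and all protein-coding genes (right panel), Gata2 KO in red (left bars) and Gata2 f/f in blue (right bars). In the left panel the bars are farthest apart inside the gene (15.6% in KO and 5.16% in f/f) and nearly level at 25 to 50 kb (2.84% and 2.78%), and in the right panel they are nearly level throughout.

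Peaks at the gene ends and distal peaks both took part. Peaks within 1000 bp of either end of a member, 8 in KO and 4 in f/f, covered 16267 bp in KO and 6046 bp in f/f, a ratio of 2.69. A gene-end peak was found at 8 members in KO and at 4 in f/f, in KO alone at 4 and in f/f alone at 0, against 4.99% and 5.15% of 11601 protein-coding genes with one in either list. The distal peaks, over 1000 bp from both ends of the member, numbered 36 in KO and 24 in f/f. They covered 45087 bp in KO and 31562 bp in f/f, a ratio of 1.43. In both lists they include peaks at the starts of other genes, such as Nme6, Cdc25a, Ptpn23, Ciz1, Ccrl2 and Ly6c2. In bases, peaks without overlap gave 20382 bp to KO and 2254 bp to f/f, which is 76.3% of the KO excess. The rest came from the edges of shared peaks, 10862 bp under KO alone and 5244 bp under f/f alone, beside 30110 bp under both. Of the 25 shared pairs, 14 were wider in KO and 11 in f/f, where 47.5% of 28349 pairs over the whole lists were wider in KO. At least 1.5 times wider in KO were 6 pairs (24.0%, against 10.3% of all pairs), namely those at the S100a8 start, 4 around Ltf and 1 at Ly6g. At least 1.5 times wider in f/f were 3 (against 9.94% of all pairs), at Lcn2, Ly6g and Mmp8.

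The other genes of the neutrophil path are given as lists beside the members. Among 20 other late neutrophil genes, 15 had more bases covered in KO over the gene and 50 kb flanks (56.6% of the 17300 genes), 4 had fewer, and Chil3, a chitinase-like protein gene, had no peak in either. The median difference, KO minus f/f, was 1650.5 bp, against 209 bp over all protein-coding genes with a peak and 1178 bp over the 9 member loci. At least 1.5 times as many bases in KO were found at 7 of the 20, against 12.6% of all genes with a peak, and the reverse at none, against 9.32%. Differences were widest at Trem1, an activating receptor of neutrophils and monocytes (11926 bp in KO and 4290 bp in f/f), and Mmp25, a membrane-bound metalloproteinase (10856 and 5711 bp). Slpi, a protease inhibitor (6356 bp in KO and 9095 bp in f/f), and Clec4d, a lectin receptor (8149 and 8555 bp), went furthest the other way. Gene-end peaks stood in KO alone at Olfm4, Itgb2l, Mmp25, Cxcr2 and Adam8, the last with a start peak in both lists, and at none of the 20 in f/f alone, against 4.99% and 5.15% of the 11601 genes with one in either list. Of the 6 azurophil granule genes, 2 had more bases in KO and 4 fewer, where 9800 of the 17300 genes with a peak had more and 7492 fewer. The median difference was -3066.5 bp, and 0 of the 6 had at least 1.5 times the bases in either direction. Mpo, which encodes myeloperoxidase, had 11214 bp in KO and 15359 bp in f/f and lacked a KO peak at its ends, where f/f had one, and Prtn3, the proteinase 3 gene, had 21406 bp in KO and 25424 bp in f/f. The windows of Prss57, Prtn3 and Elane overlap one another, so that these genes are not separate counts. Higher coverage was found at Prss57 (12184 and 11358 bp) and Ms4a3 (12457 and 12079 bp). Elane and Ctsg were the other members with fewer bases in KO.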

How the data were processed

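H3K27ac peak lists of 2 libraries were used, 1 per genotype, grouped by the genotype in the labels. Alignment and peak calling used BWA, SAMtools and MACS2 on mm10, per the submitters' processing notes, and the broad-peak format of the lists. The sources used here do not give versions, options, controls or read depth. The authors deposited for every peak a fold enrichment, which is a ratio, with the -log10 of its p-value and of its q-value (at least 1.01 in either list). More reads or lower background give more and wider peaks. The score column was not used.

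Peaks outside chromosomes 1 to 19, X and Y were dropped. A shared base made an overlap, and peaks without overlap were as many by bedtools 2.31.1. Gene positions and starts came from RefSeq tables of GRCm38.p6, where all 10 members matched, and exons were not used. The table of starts held 17491 of the 21883 genes. The interval code (Python 3.11.15) was tested on simulated data. Shares over all genes or peaks stand as background beside the counts of members, of their peaks and of the late neutrophil list. Named genes are the members, the neighbours nearest to extra peaks, and list genes with a gene-end peak in 1 library alone or the 2 widest differences each way. The members and lists were chosen with earlier results of these data known, and the motifs after the files were read. Alternatives were other peak thresholds, flanks, overlap rules and gene-end windows.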

Additional observations from a re-analysis of the deposited data

How the results depend on the processing

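The higher coverage of the 9 loci in KO, a ratio of 1.63, kept its direction with lists of equal length (1.43, 0.992 over the whole lists), with a minimum -log10 q of 5 (1.55, 0.951 over the whole lists), among the stronger peaks down to each median -log10 p (1.54) and with flanks of 10, 25 and 100 kb (2.42, 1.94 and 1.41). It reversed among peaks of at least 3-fold enrichment, to 0.795 with 2 loci higher in KO and 5 lower, where the whole-list ratio was 0.833. Peaks without overlap, 19 in KO and 3 in f/f in the report, were 12 and 4 with lists of equal length, 9 and 3 with the -log10 q minimum, and 5 and 0 at or above the medians. All 5 at or above the medians overlap an f/f peak in the full lists, which the cut removed. Of the 9 with the -log10 q minimum, only those at Fcnb and 1 at Ly6g lack f/f overlap in the full lists, and the others lost their f/f peak to the cut. With 3-fold enrichment the order reversed, at 4 of 13 KO peaks and 9 of 18 f/f peaks, where the whole lists kept 19919 KO and 23036 f/f peaks. Those 9 f/f peaks all overlap a KO peak in the full lists, which the cut removed. For the other thresholds, neither the share of all peaks without overlap nor that of all genes with a gene-end peak in 1 list alone was counted. Extra KO peaks numbered 13 to 23 under the other flanks and overlap rules. A peak at a gene end in KO alone stood at 4 members in the report and in f/f alone at 0. With 3-fold enrichment this also reversed, to 0 in KO alone and 3 in f/f alone (S100a8, Camp and Mmp8, whose KO peaks are lost). There were 2 in KO alone (Fcnb, and Ngp whose f/f peak is lost) and 1 in f/f alone with the -log10 q minimum, and 2 (S100a8 and Camp, whose f/f peaks are lost) and 0 at or above the medians. There were 3 with lists of equal length, without Retnlg, and 3 where no f/f peak could lie within 5000 bp of either end, an alternative added after seeing the data, without Ltf. By locus, the KO minus f/f difference reversed at Ngp with the -log10 q minimum (4211 bp), at or above the medians (34 bp) and with 100 kb flanks (1860 bp). It reversed at Lcn2 with lists of equal length (-304 bp), with the -log10 q minimum and with 3-fold enrichment (-691 bp in both), and with 3-fold enrichment also at S100a8 and S100a9 (-1770 bp) and Ly6g (-2614 bp). The cause was not tested, apart from fewer peaks being counted. No paired analysis was possible because each genotype has 1 library. The read depth is unknown, and all 19 extra KO peaks lie below the median -log10 p of their list.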
